A study of Bos taurus with 38 samples.

Results

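MYH6 (ENSBTAG00000040053) and MYL3 (ENSBTAG00000008394) encode slow and cardiac type parts of myosin, the motor of muscle contraction. Both were taken by gene ID, with earlier results of these data known, and are 2 of the 27607 genes counted by RNA-Seq in Longissimus dorsi, the long muscle of the back, of 38 newborn beef calves. Both passed the filter on low counts, as did 12964 genes in all. The question was whether their expression differed with the trimester of pregnancy in which the dam was given selenium (Se).

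The dams were Angus and Angus-cross cows, and CTR dams (10 calves, 4 of them female) were given no Se-yeast. Se-yeast was given as 3 boluses a week for 13 weeks, 105 mg of Se a week in all, to TR1 dams in the first trimester (9 calves, 2 female), to TR2 dams in the second (10 calves, 3 female) and to TR3 dams in the third (9 calves, 5 female). Every dam, CTR included, also had free access to a mineral mix with 120 mg/kg of Se from Na selenite, so CTR is a group without Se-yeast and not a group without added Se. Sexes are those of the labels, and the study's text splits the CTR calves by sex in another way. Dams were labelled as 5 to 9 years old, and the calves were biopsied with a needle 12 to 48 h after birth.

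Myosin is built from a pair of heavy chains, each carrying an essential and a regulatory light chain. MYH6 encodes the alpha heavy chain, the fast-cycling cardiac isoform that dominates in the atria and that in skeletal muscle is best known from jaw muscles and from the small fibres inside muscle spindles. MYL3 encodes the essential light chain of the heart ventricle and of slow skeletal fibres. In the annotation MYH6 lies beside MYH7, the beta heavy chain gene of slow fibres and ventricle, whose sequence is nearly the same, so how reads were split between them is uncertain. MYH7 was not analysed here because its gene ID was not paired with a symbol in the sources used. The same holds for MYL2, TNNT1, TNNI1, TNNC1 and for all 10 markers listed for heart muscle, so heart RNA could not be checked by them.

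The libraries held between 12921223 and 17471666 counts per calf (median 14121366). Of 8 markers listed for skeletal muscle, 6 had an ID, and their summed level was between 27183 and 87422 CPM (read counts scaled to a common library size, after TMM) in each calf, with ACTA1, the skeletal actin, alone at a mean of 42045 CPM. Adipocyte markers (3 of 5 with an ID) summed to 1.77 to 42.5 CPM and smooth muscle markers (4 of 4) to 65.4 to 467 CPM. In bulk muscle, fewer fibres of a type and less RNA per fibre cannot be told apart.

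MYH6 was among the most variable genes between calves. Its level ran from 51.7 CPM in TR2 calf A2100 to 1446 CPM in CTR calf A2034, a 27.9-fold range, on 726 to 21588 raw counts. The biological coefficient of variation, the spread between calves left after group, sex and dam age, was 71.9% for MYH6, at the 97.3 percentile of all genes tested, whose median was 24.7%. MYL3 spread less. Its level ran from 167 CPM in TR1 calf A2040 to 1248 CPM in TR2 calf A2079, a 7.45-fold range, with a biological coefficient of variation of 38.7% at the 80.3 percentile.

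In CTR, MYH6 was between 79.1 and 1446 CPM with a median of 208 CPM (mean 308 ± 408, SD, n = 10). The SD exceeded the mean, and calf A2034 stood at 1446 CPM while the next CTR calf, A2035, was at 300.2 CPM. Without A2034 the CTR mean was 181 ± 86.2 CPM (SD, n = 9). In TR1, MYH6 was between 51.9 and 824 CPM with a median of 130 CPM (mean 207 ± 238, SD, n = 9), and 7 of 9 calves were below the CTR median. Here calf A2067 stood apart at 824 CPM, and the other TR1 calves reached 243 CPM at most. Without A2067 the TR1 mean was 130 ± 59.3 CPM (SD, n = 8).

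In TR2, MYH6 was between 51.7 and 416 CPM with a median of 228 CPM (mean 210 ± 112, SD, n = 10). In TR3 it was between 114 and 686 CPM with a median of 237 CPM (mean 285 ± 179, SD, n = 9). The TR3 calf at 686 CPM was A2087, a female. The order of the medians was TR3, TR2, CTR and TR1. The ranges overlapped throughout, and 35 of the 38 calves, the CTR calves included, lay within the range of the CTR calves. That range reached up through A2034: with A2034 and A2067 left out, CTR ran from 79.1 to 300.2 CPM and 28 of 36 calves lay within it.

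**Figure D1:**
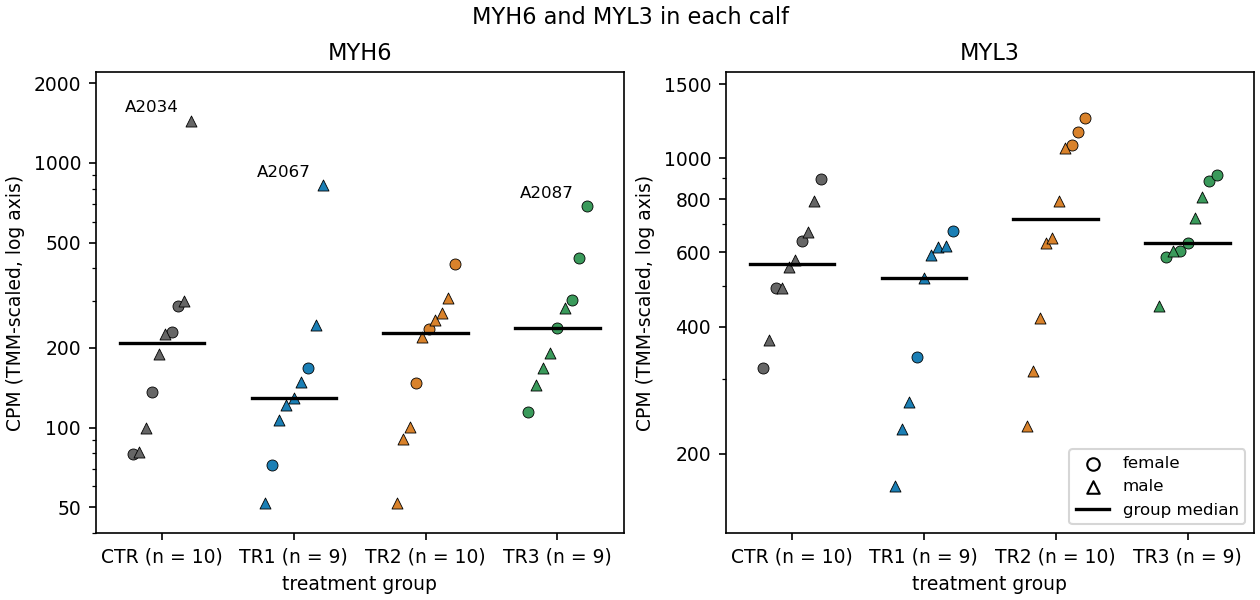
MYH6 (left) and MYL3 (right) in each calf, in TMM-scaled CPM on a log axis, by treatment group; circles are females, triangles are males and the bar is the group median. MYH6 has 3 calves far above the rest, A2034 in CTR (1446 CPM), A2067 in TR1 (824 CPM) and A2087 in TR3 (686 CPM), while for MYL3 the TR2 females (1078 to 1248 CPM) lie above all CTR calves.

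No difference of MYH6 between groups was larger than the spread between calves. With edgeR's quasi-likelihood test over all genes, the log2 fold change was -0.64 in TR1 vs. CTR (SE 0.52, p = 0.230, adjusted p = 1.00), -0.51 in TR2 vs. CTR (SE 0.50, p = 0.313, adjusted p = 0.776) and -0.13 in TR3 vs. CTR (SE 0.55, p = 0.810, adjusted p = 1.00). In these comparisons 0% of genes passed an adjusted p of 0.05 (0 of 12964 in each), and 2.55%, 8.34% and 1.35% had an unadjusted p under 0.05. Tested with DESeq2, 0, 1 and 0 genes passed. The 95% interval of the TR1 difference ran from 0.310-fold to 1.34-fold of CTR and that of TR3 from 0.421-fold to 1.97-fold. The test of any difference among the groups gave p = 0.549 (edgeR, adjusted p = 0.958).

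The direction of MYH6 against CTR changed when calf A2034 was left out. Without it the edgeR log2 fold changes were 0.30 in TR1, 0.23 in TR2 and 0.62 in TR3, all of opposite sign to those with it. The TR3 value also turned, to 0.00666, without TR3 calf A2033. Without TR1 calf A2067 the TR1 value was -1.23 (p = 0.0143, adjusted p = 1.00), and with both calves left out the values were -0.30, 0.24 and 0.71. Among the Se-yeast groups, the log2 fold change of MYH6 was 0.50 in TR3 vs. TR1 (SE 0.56, edgeR p = 0.379), 0.37 in TR3 vs. TR2 (SE 0.56, p = 0.506) and 0.13 in TR2 vs. TR1 (SE 0.55, p = 0.818). Adjusted p was 0.837 or more in all 3, in which 0% of genes were called and 5.85%, 9.46% and 6.15% had an unadjusted p under 0.05. Under the alternatives, single calves aside, MYH6 ran from 0.35 to 1.01 in TR3 vs. TR1 and from 0.016 to 0.54 in TR2 vs. TR1. The TR2 vs. TR1 value also turned negative with a single calf left out.

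**Figure D2:**
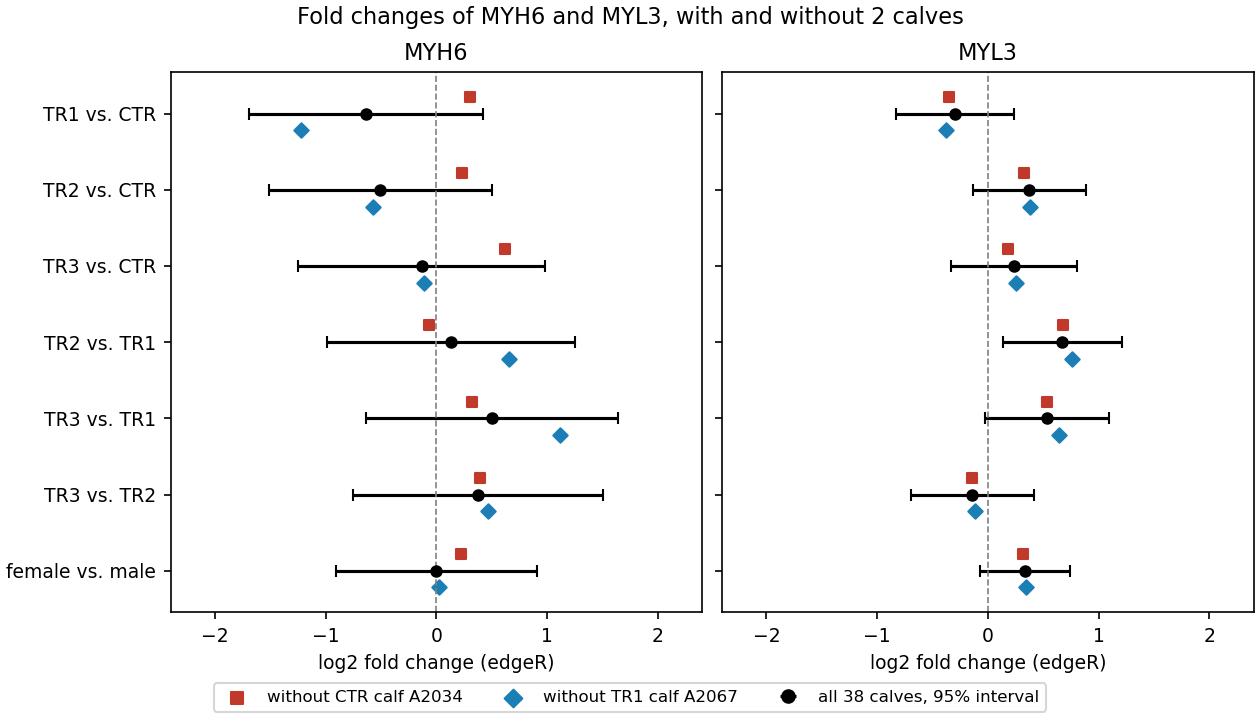
Log2 fold changes of MYH6 (left) and MYL3 (right) from edgeR in 7 comparisons; black points are all 38 calves with the 95% interval, red squares leave out CTR calf A2034 and blue diamonds leave out TR1 calf A2067. For MYH6 the TR1 vs. CTR value moves from -0.64 to 0.30 without A2034 and to -1.23 without A2067, while for MYL3 the points stay close together.

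By mean and median CPM, MYL3 was lowest in TR1 and highest in TR2; by mean variance-stabilized value, TR3 (13.22) was above TR2 (13.20). In CTR its level was between 319 and 894 CPM with a median of 564 CPM (mean 580 ± 177, SD, n = 10). In TR1 it was between 167 and 673 CPM with a median of 521 CPM (mean 447 ± 196, SD, n = 9). TR1 fell into lower and higher values, with A2040, A2029, A2032 and A2052 at 167, 229, 265 and 339 CPM and the other 5 calves between 521 and 673 CPM. Those 4 libraries had the highest TMM factors of TR1, 1.10 to 1.35 against 0.916 to 1.00 in the others; the factor scales libraries for differences in composition and these levels are divided by it, and its part in the low values was not tested.

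In TR2, MYL3 was between 233 and 1248 CPM with a median of 721 CPM (mean 758 ± 366, SD, n = 10). The 3 TR2 females were at 1078, 1157 and 1248 CPM, above every CTR calf of either sex, and the 7 males were between 233 and 1059 CPM. Among males alone TR2 was close to CTR, at means of 585 ± 288 CPM (SD, n = 7) and 576 ± 145 CPM (SD, n = 6), and TR3 was above both at 645 ± 157 CPM (SD, n = 4). In TR3, MYL3 was between 447 and 915 CPM with a median of 630 CPM (mean 689 ± 155, SD, n = 9), and 8 of 9 calves were above the CTR median although 8 of 9 were also within the CTR range. The order of the medians was TR2, TR3, CTR and TR1, and neighbours in that order did not differ beyond their spread (edgeR p = 0.612 for TR3 vs. TR2, 0.409 for TR3 vs. CTR and 0.266 for TR1 vs. CTR).

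By edgeR the log2 fold change of MYL3 was -0.30 in TR1 vs. CTR (SE 0.26, p = 0.266, adjusted p = 1.00), 0.37 in TR2 vs. CTR (SE 0.25, p = 0.144, adjusted p = 0.674) and 0.23 in TR3 vs. CTR (SE 0.28, p = 0.409, adjusted p = 1.00). With each calf left out in turn the values kept their direction and ran from -0.39 to -0.20 in TR1 (-0.20 without A2040), from 0.27 to 0.49 in TR2 (unadjusted p = 0.0473 in edgeR without A2100) and from 0.11 to 0.30 in TR3 (0.11 without A2075). The most distant groups were TR2 and TR1, at a log2 fold change of 0.67 (SE 0.26, edgeR p = 0.0149), a 1.59-fold difference with a 95% interval of 1.10 to 2.31. Without A2068 it was 0.54. It did not pass adjustment over all genes (adjusted p = 0.791), and 6.15% of genes had an unadjusted p under 0.05 in that comparison. In TR2 vs. TR1 the markers of other cells moved too. All 3 adipocyte markers had negative log2 fold changes (median -1.61) and all 4 connective tissue markers (median -0.51), with 2 of each at an unadjusted p under 0.05 in edgeR; of 6 skeletal muscle markers 5 were positive (median 0.24). VWF, the endothelial marker with an ID, was at 0.36, also at an unadjusted p under 0.05. In TR2 vs. CTR all 4 connective tissue markers were negative (median -0.52), each at an unadjusted p under 0.05. VWF was at 0.35 (edgeR p = 0.0318), and 8.34% of all genes had an unadjusted p under 0.05 there. Without CTR calf A2088 the edgeR p was 0.102 for COL1A1, 0.0820 for COL1A2 and 0.103 for COL3A1. It was 0.0523 for PDGFRA without CTR calf A2038 and 0.0661 for VWF without CTR calf A2096. In TR3 vs. TR1 all 3 adipocyte markers were negative (median -1.67), 2 of them at an unadjusted p under 0.05. In that comparison 5.85% of all genes had such a p. TR1 calf A2040, with the lowest MYL3, had the highest level of all 3 adipocyte markers. Of these, ADIPOQ was near the floor, at a median of 0.176 CPM over the 38 calves. Without A2040 the median of the 3 in TR1 vs. CTR went from 0.86 to 0.03. Values of these markers without A2040 were taken only against CTR. The part of these markers in the MYL3 differences was not tested. For MYL3, TR3 vs. TR1 gave 0.53 (SE 0.28, edgeR p = 0.0617, adjusted p = 0.861). The test of any difference among the groups gave p = 0.0774 (edgeR, adjusted p = 0.828), where 6.09% of genes had an unadjusted p under 0.05.

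Sex and dam age did not pass the test for either gene. MYL3 was 746.99 ± 289 CPM in 14 females and 548 ± 216 CPM in 24 males (mean ± SD), with a log2 fold change of 0.33 after group and dam age (SE 0.20, edgeR p = 0.103, adjusted p = 0.811). MYH6 had 253 ± 168 CPM in females and 252 ± 297 CPM in males, a log2 fold change of -0.00 (SE 0.45, edgeR p = 0.997). Between the sexes 0.0309% of genes were called, and 6.61% had an unadjusted p under 0.05. Per year of dam age the log2 slope was -0.07 for MYH6 (SE 0.17, edgeR p = 0.675) and 0.04 for MYL3 (SE 0.08, p = 0.640), with no gene called (0%) and 3.36% at an unadjusted p under 0.05.

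For its own lists the study names a method with a test, an adjusted p and a limit on fold change, which was not rerun here. A standardized difference was computed instead as a description: the difference of the variance-stabilized group means less its mean over all genes and divided by its SD over them, read at 1.5 in size, with no term for the spread between calves. On it MYH6 was at -2.83 in TR1, -0.89 in TR2 and 2.31 in TR3, each against CTR. MYL3 was at -2.94, 1.40 and 2.25. Both members were past 1.5 below CTR in TR1, with 5.19% of all genes (5.35% were above), and past 1.5 above CTR in TR3, with 5.89% of all genes (5.04% were below). In TR2, where 4.87% lay above and 5.48% below, neither member was past 1.5. A value of 1.5 was a 1.18-fold difference in TR1, 1.22-fold in TR2 and 1.14-fold in TR3. The standardized differences are positions among genes and carry no test. The members were chosen with results on these calves known, so their place past 1.5 is no independent support, and the CTR calves are shared by the 3 comparisons.

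On this scale too, single calves moved MYH6. Without A2034 its values were -0.79 in TR1, 0.80 in TR2 and 4.78 in TR3. With each calf left out in turn, MYH6 fell short of 1.5 in TR1 without A2034 or A2058 (-1.48), and in TR3 without A2041, A2088, A2096, A2065 or A2087 (0.78 to 1.43). In TR2 it passed -1.5 without A2041, A2088 or A2054 (-1.72 to -1.52). In TR3 the sign of MYH6 differed between the scales with all calves in (2.31 here and -0.13 in log2 fold change by edgeR), and was positive on both without A2034. MYL3 stayed between -3.50 and -1.89 in TR1 and between 1.45 and 2.67 in TR3, where it was under 1.5 only without A2075. In TR2 it passed 1.5 without any of 6 calves, up to 2.55 without A2100.

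Within each library, MYH6 counts were set against those of the other parts of the myosin family, which does not depend on how libraries are scaled. MYH6 made up 0.118% to 5.92% of the counts of the 7 heavy chain genes with an ID (MYH1, MYH2, MYH3, MYH4, MYH6, MYH8 and MYH15; MYH7 is not among them, and counts were not corrected for length). The median share was 0.471% in CTR and 0.415%, 0.549% and 0.638% in TR1, TR2 and TR3. The share was highest in A2034, and the next was 2.59% in A2067. MYL3 made up 1.75% to 7.93% of the counts of the 3 essential light chain genes with an ID, the others being MYL1, the fast isoform, and MYL6B, an isoform of slow fibres. Its median share was 3.20% in CTR and 2.62%, 5.30% and 3.75% in the Se-yeast groups in order of trimester. The highest share, 7.93%, was in TR1 calf A2052, whose MYL3 level was low at 339 CPM.

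None of 18 tests of these ratios and of MYH6 to MYL3, 3 ratios in each pair of groups, passed an adjusted p of 0.05. The pairs TR2 vs. TR1 and TR3 vs. TR2 were added after the data were seen. The log2 ratio of MYL3 to the other essential light chains was -4.56 ± 0.28 in TR3 and -5.00 ± 0.71 in TR1 (SD, n = 9 each), a difference of 0.44 (two-sided exact permutation test, p = 0.103, adjusted p = 0.865 over the 18). In TR2 it was -4.38 ± 0.69, against -4.79 ± 0.54 in CTR (SD, n = 10 each, two-sided permutation test, p = 0.157, adjusted p = 0.865). The widest gap of this ratio was 0.62, between TR2 and TR1 (two-sided exact permutation test, p = 0.0706, adjusted p = 0.865). The log2 ratio of MYH6 to the other heavy chains differed from CTR by -0.11 in TR1, -0.15 in TR2 and 0.24 in TR3 (permutation p = 0.878, 0.806 and 0.686). Each of these directions turned with a single calf left out or under another alternative.

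MYH6 and MYL3 showed no correlation across calves that passed the test. The ratio of MYH6 to MYL3 counts ran from 0.0945 in TR2 calf A2068 to 3.88 in A2034, with a median of 0.327. Over all 38 calves Pearson's r of their log2 CPM was 0.13 (permutation p = 0.451, adjusted p = 0.837 over 13 relations) and Spearman's rho was 0.18 (p = 0.266). Without A2034 and A2067, the calves farthest from the median of MYH6, r was 0.23. Within CTR r was -0.39, and in the Se-yeast groups, in order of trimester, -0.07, 0.31 and 0.59 (permutation p = 0.269, 0.862, 0.380 and 0.0970), and differences among these were not tested. In TR3 rho was 0.72 (exact permutation p = 0.0369, adjusted p = 0.268), and r dropped to 0.40 without A2074 and A2087. With the 2 calves of each group farthest from its MYH6 median left out, r was -0.19 in CTR and -0.62 in TR1, and it turned to -0.33 in TR2.

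**Figure D3:**
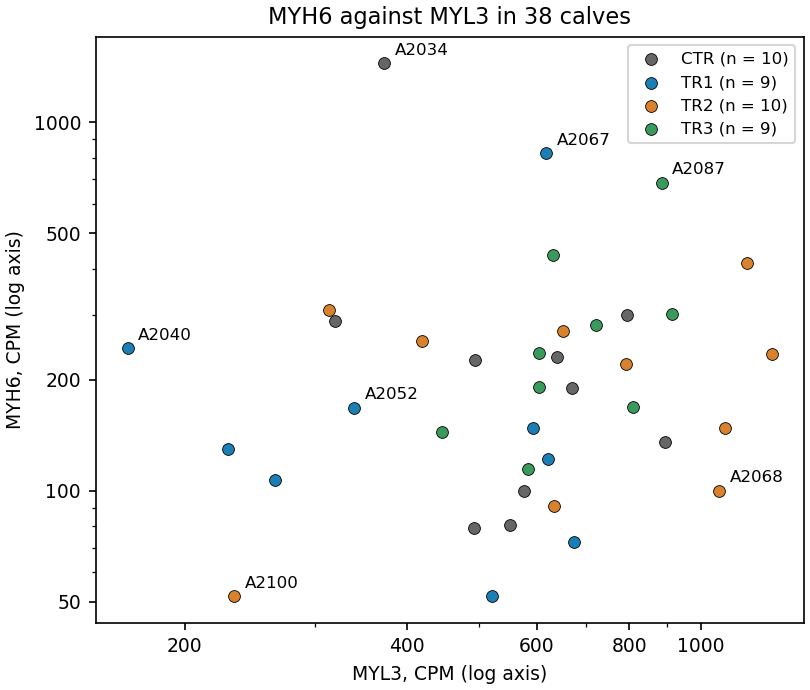
MYH6 against MYL3 in each of 38 calves, both in TMM-scaled CPM on log axes, coloured by group. The calf with the highest MYH6, A2034, has 373 CPM of MYL3 and ranks 31 of 38 for it, and A2040, with the lowest MYL3, has 243 CPM of MYH6.

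CPM is divided by the TMM factor, so a negative correlation between them is partly built in. The TMM factor correlated with MYL3 at r = -0.46 over 38 calves (permutation p = 0.00403, adjusted p = 0.0524) and at -0.33 without A2040 and A2052, and with MYH6 at -0.06 (permutation p = 0.708). Within TR1 the value for MYL3 was -0.67 (exact permutation p = 0.0461, adjusted p = 0.300), and it was 0.04, -0.23 and -0.32 within CTR, TR2 and TR3. Leaving out the 2 calves of a group with the most distant factors gave -0.42 for CTR and, by trimester, -0.85, -0.18 and 0.49, a change of sign in CTR and TR3. With CPM by library size alone, which the factor does not enter, r with MYL3 was -0.30 over 38 calves (permutation p = 0.0692, adjusted p = 0.692 over 10 relations, added after the data were seen) and -0.50 within TR1 (exact permutation p = 0.176). Scaled that way, the log2 fold change of MYL3 in TR2 vs. TR1 was 0.59 (edgeR p = 0.0201, adjusted p = 0.497), while the median of all genes shifted to -0.12.

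MYH6 and MYL3 had different neighbours among 2579 named genes of at least 1 CPM. The symbols came from the study's supplementary tables of genes selected in these calves. Genes whose ID had no symbol, MYH7 among them, could not appear. Over the 38 calves MYH6 was most like ATP2A2 (r = 0.61), the calcium pump of slow fibres and heart, TMEM132A (0.61), KCNJ5 (0.58), a potassium channel subunit of the atria, and MYLK3 (0.54), the cardiac myosin light chain kinase. GRB14, C2H2orf80, BARX2 and NTN1 followed at 0.51 to 0.48. Without A2034 and A2067 the r of ATP2A2 was 0.45, that of TMEM132A 0.50, that of KCNJ5 0.44 and that of MYLK3 0.51, while the 4 that followed dropped to between 0.25 (BARX2) and 0.37 (GRB14). At the other end stood ANKRD1 (r = -0.57), a cardiac ankyrin repeat protein induced by stretch, SLC6A13, EFR3B and DCUN1D2 (-0.48).

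MYL3 was most like CAPZB (r = 0.61), the beta subunit of the protein that caps actin filaments at the Z-disc, MACF1 (0.60), TECR (0.60) and TNNT3 (0.58), the fast skeletal troponin T. IGSF8, TUBB, DMPK and ACTA1 followed at 0.58 to 0.56. Lowest were ZNF853 (-0.62), UGP2 (-0.61), SYNPO (-0.59) and POLD4 (-0.57). These values are over points that share library scaling and are given without a test. By library size alone the r of TNNT3 was 0.48 and that of CAPZB 0.53.

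Other muscle genes with an ID were placed by their correlation with each member. Most of these IDs got their symbol from tables of genes the study had selected in the same calves, so the lists are not independent of the data. Of 12 fast-fibre genes, 11 correlated positively with MYL3, with a median r of 0.46 against -0.01 over all genes, and the exception was MYOZ1 (-0.09). With library size in place of TMM, 10 of 12 were positive with a median of 0.34. With MYH6, 5 of the 12 were positive and the median was -0.02. Without A2034 and A2067, 8 of the 12 were positive with MYH6 (median 0.06). Of 8 slow-fibre genes beside MYL3, 5 correlated positively with MYL3 (median r 0.05, and -0.00 by library size), from ANKRD2 at -0.25 to CASQ2, the slow and cardiac calsequestrin, at 0.41. The slow essential light chain MYL6B was at -0.06. With MYH6, 5 of these 8 slow-fibre genes were positive (median r 0.14), and 3 without A2034 and A2067 (median -0.06). Slow is the known role of MYL3, while across these calves its correlations were higher with fast-fibre than with slow-fibre genes (medians 0.46 and 0.05), a difference that was not tested. Other markers also varied with MYL3: 5 of 6 for skeletal muscle were positive (median r 0.23). For smooth muscle 4 of 4 were negative (median -0.30), and for adipocytes 2 of 3 (median -0.38). Markers of connective tissue (4 of 4, median 0.22) and of blood and immune cells (5 of 5, median 0.16) were positive with MYH6.

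The developmental sarcomere genes MYH3 (embryonic heavy chain), MYH8 (neonatal heavy chain) and ACTC1 (cardiac actin, also expressed in fetal skeletal muscle) correlated with MYL3 at 0.50, 0.44 and 0.51. With MYH6 they were at -0.31, 0.06 and -0.23. Of 7 cardiac-type genes beside MYH6, 3 correlated positively with it: MYLK3 (0.54), TECRL (0.47), and CTNNA3 (0.09). ANKRD1, CSRP3, ACTC1 and XIRP1 had negative values. Without A2034 and A2067, 2 of the 7 were positive, MYLK3 at 0.51 and TECRL at 0.37, and CTNNA3 was at -0.02. MYH3 and ACTC1 then stood at -0.15 and -0.10 with MYH6.

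**Figure D4:**
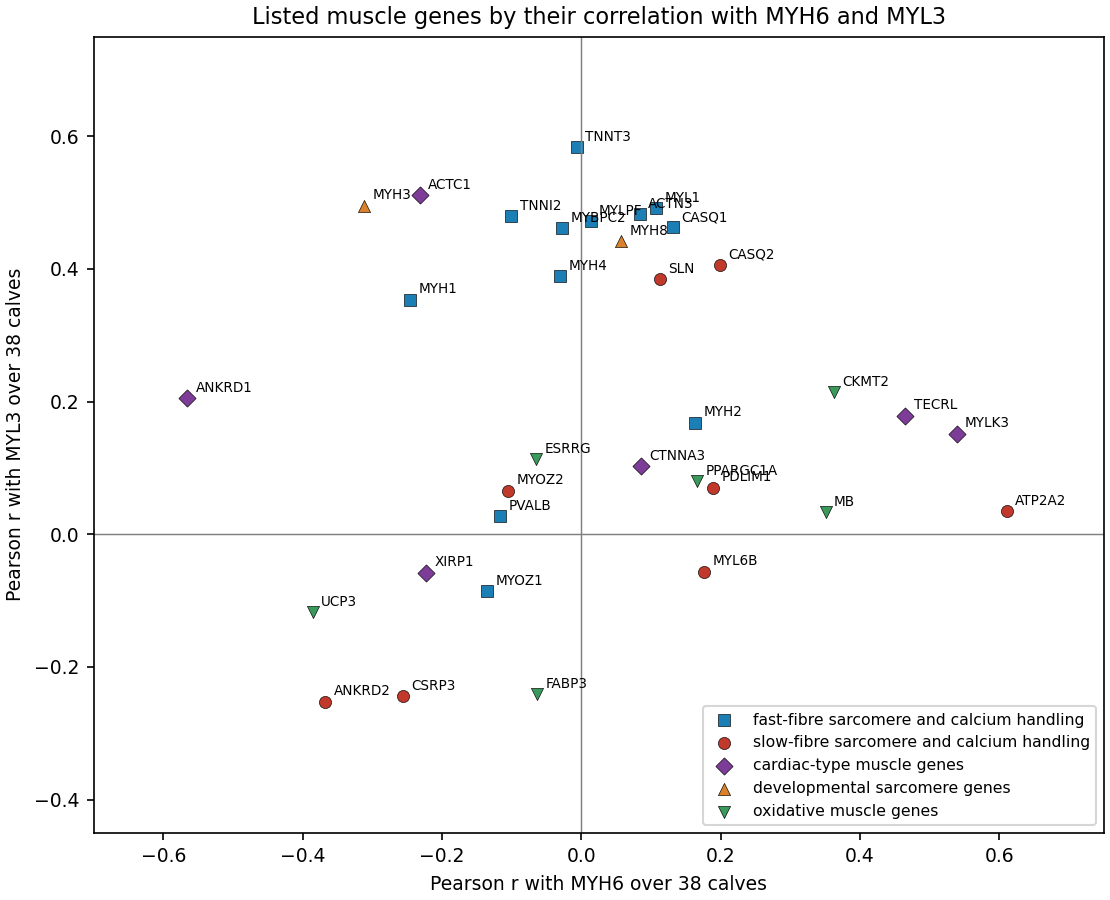
Pearson r with MYH6 (horizontal) and with MYL3 (vertical) over 38 calves for each listed muscle gene with an ID, coloured by list; a gene of several lists is drawn once, under the first in the legend. Fast-fibre genes gather high on the MYL3 axis (median 0.46) and around 0 on the MYH6 axis (median -0.02), and ATP2A2 lies farthest right (0.61).

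Of the 3 calves with the highest MYH6, A2034 and in part A2067 also stood out in other muscle genes. In A2034, ATP2A2 was at 7323 CPM and MB, the oxygen store myoglobin, at 9216 CPM, each the highest of 38 calves, 3.15 and 1.96 times the median calf. MYLK3 at 48.5 CPM and TBX15, a transcription factor of skeletal muscle, at 198 CPM were also the highest of 38. MYL6B was 2.47 times and PDLIM1 2.57 times the median calf, but of 8 slow-fibre genes beside MYL3 only 4 were above the median calf in A2034. SLN (0.743 times), CSRP3 (0.740), ANKRD2 (0.547) and MYOZ2 (0.953) were below it, as were 4 of 7 cardiac-type genes. Against this, MYH1, the fast IIx heavy chain, was at 939 CPM in A2034 against a median of 17437 CPM, and MYH3 at 3.01 CPM against 75.1 CPM was the lowest of 38. ANKRD1 at 7.23 CPM and UCP3, an uncoupling protein of muscle mitochondria, at 15.1 CPM were the lowest too. MYL3, at 373 CPM, was at 0.610 times the median calf. Low MYH1 was also seen without high MYH6: it was at 615 CPM in TR1 calf A2040 and at 827 CPM in TR3 calf A2033, which ranked 13 and 25 of 38 for MYH6, and A2033 had the highest MYL6B (2755 CPM) and MYOZ2 (1563 CPM) of all. Genes here other than heavy and light chains were picked after their values were seen.

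TR1 calf A2067 shared part of this. ATP2A2 (6624 CPM), TBX15 (191 CPM), MYL6B (2177 CPM) and TEAD4 (39.5 CPM) ranked 2 of 38, MB (8595 CPM) ranked 3, and CASQ2 (494 CPM) was the highest of all. MYH2, the oxidative IIa heavy chain, was at 25066 CPM in A2067 and 22016 CPM in A2034, 1.64 and 1.44 times the median. MYH1 was at 0.338 times the median in A2067, and 7 of 8 slow-fibre and 5 of 7 cardiac-type genes were above the median there. In TR3 calf A2087, in contrast, ATP2A2 ranked 20 and MYL6B 35 of 38, and 7 of 8 slow-fibre genes beside MYL3 were below the median calf. Of the 12 fast-fibre genes, 10 were below the median in A2034, 5 in A2067 and 2 in A2087. Other cells' markers in A2034 ranked 37 of 38 for smooth muscle, 35 for adipocytes, 14 for connective tissue, 6 for blood and immune cells, 11 for Schwann cells and 27 for endothelium; in A2067 the ranks were 20, 25, 5, 11, 5 and 9. Their part in the MYH6 levels was not tested.

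**Figure D5:**
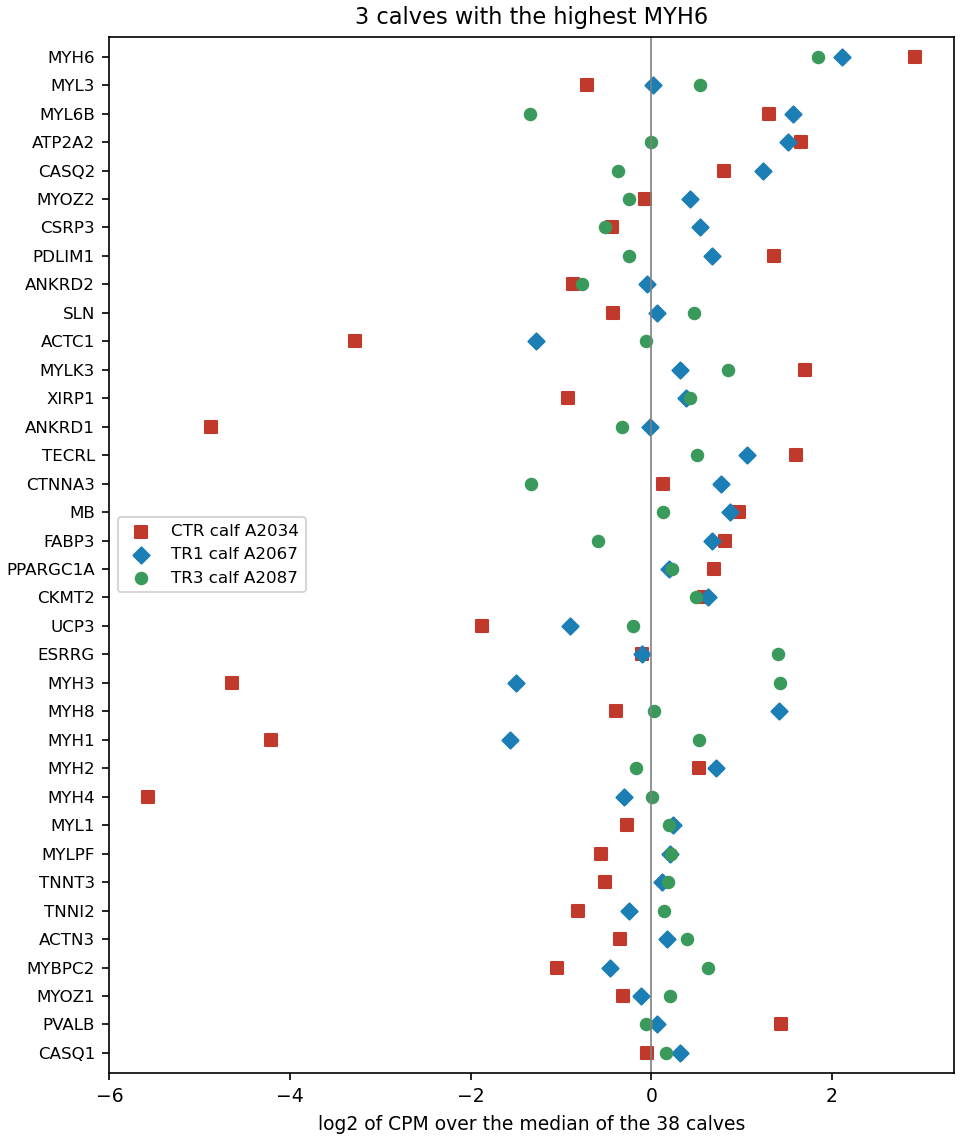
Level of each listed slow-fibre, cardiac-type, oxidative, developmental and fast-fibre gene in the 3 calves with the highest MYH6, as log2 of its CPM over the median of 38 calves. Of 8 slow-fibre genes beside MYL3, 4 are above 0 in A2034, 7 in A2067 and 1 in A2087, and of 7 cardiac-type genes beside MYH6, 4 are below 0 in A2034 and 2 in A2067.

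Between groups, no listed gene passed an adjusted p of 0.05 in edgeR. Of the 8 slow-fibre genes beside MYL3, 5 had a negative and 3 a positive log2 fold change in each of the 3 comparisons with CTR, with medians of -0.15 in TR1, -0.15 in TR2 and -0.04 in TR3, where all genes had medians of 0.00, 0.01 and -0.01. With 1 calf left out, TR1 ran from 4 negative (median -0.03, without A2023) to 8 (without A2042), and the median in TR2 came to -0.0029 without A2035. In TR1 the extremes were ANKRD2 (-0.34) and SLN (-0.33), a small inhibitor of calcium pumps, and MYOZ2 (0.06) and ATP2A2 (0.05). Without single calves ANKRD2 was at -0.08 (A2023), SLN at -0.12 (A2052) and MYOZ2 at -0.04 (A2047). ATP2A2 ran from -0.19 without A2067 to 0.42 without A2034. In TR2 the extremes were CASQ2 (-0.67), PDLIM1 (-0.37), ANKRD2 (0.87) and CSRP3 (1.25), a Z-disc protein of slow fibres and heart. CSRP3 was the only gene of the list with an unadjusted p under 0.05 against CTR (p = 0.0434 in TR2 by edgeR, where 8.34% of all genes had one). Single calves moved both high values. A2023 had 9195 CPM of CSRP3 and 3678 CPM of ANKRD2, where the TR2 medians were 715 and 159.5 CPM and the CTR medians 622 and 201 CPM. Without A2023 the ANKRD2 value was 0.063, and without A2100 that of CSRP3 was 0.58 (edgeR p = 0.288). In TR3 the extremes were ANKRD2 (-0.41), PDLIM1 (-0.29), SLN (0.21) and MYOZ2 (0.30), and the median of the list turned to 0.15 without A2034. Without single calves ANKRD2 was at -0.07 (A2023), PDLIM1 at -0.11 (A2034), SLN at 0.11 (A2102) and MYOZ2 at 0.06 (A2033).

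The 7 cardiac-type genes beside MYH6 had 5 negative values in TR1, 4 in TR2 and 5 in TR3, with medians of -0.12, -0.01 and -0.19. In TR2 only 1 was negative without A2088 (median 0.11), in TR3 the median was -0.012 without A2023 and 7 of 7 were negative without A2091, and in TR1 the median ran from -0.24 to -0.011. ANKRD1 was lowest in TR1 (-0.91) and in TR3 (-0.99), but at 0.27 and 0.07 without CTR calf A2088. XIRP1, which binds actin at cell junctions, was highest in TR2 at 1.79, with an unadjusted p under 0.05. Calf A2100 had 1293 CPM of XIRP1, the medians were 117 CPM in TR2 and 80.0 CPM in CTR, and without A2100 the value was 1.08 (edgeR p = 0.0122). Of the 6 oxidative genes, UCP3 was at 1.17 and PPARGC1A, a coactivator that drives mitochondrial genes, at -0.60 in TR2, both with an unadjusted p under 0.05, which PPARGC1A missed without CTR calf A2035 (-0.45, edgeR p = 0.0547). Calf A2100 had the highest UCP3 of all calves (273 CPM), and without it the UCP3 value was 0.81 (edgeR p = 0.0219). MB was at -0.05, -0.34 and -0.01 in TR1, TR2 and TR3. Among 12 fibre-type regulators, 10 were negative in TR1 (7 without A2052), 7 in TR2 and 6 in TR3 (3 without A2041), and RCAN1, an inhibitor of calcineurin, was at 1.19 in TR2. The RCAN1 value was 0.90 (edgeR p = 0.0233) without A2100, which had the highest RCAN1 too. In TR2 a share of 8.34% of all genes had an unadjusted p under 0.05.

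Of the 12 fast-fibre genes, 12 were negative in log2 fold change in TR1 (median -0.22) and 10 positive in TR3 (median 0.09), with 8 negative in TR2 (median -0.05). TR1 calf A2052, with the highest TMM factor and the lowest skeletal marker sum, was the lowest of 38 for 8 of the 12. Without it the medians were -0.07 in TR1 and 0.01 in TR3, with 11 negative and 8 positive. The TR1 medians of TNNT3 (12529 CPM) and MYL1 (13956 CPM) were close to those of CTR (12509 and 14127 CPM). The other fast-fibre genes all had lower medians in TR1 than in CTR. Among these were MYBPC2 (3155 and 4128 CPM), CASQ1 (2638 and 3308 CPM) and ACTN3 (2550 and 3110 CPM). In TR2 the number of negative values ran from 3 without A2042 to 11 without A2035. In TR1 only PVALB, the calcium buffer parvalbumin, had an unadjusted p under 0.05 (-3.11), at a median of 0.296 CPM over the 38 calves. Of all genes 2.55% had such a p in TR1. In TR2 only MYOZ1 had one (0.29, edgeR p = 0.0447, and 0.109 without A2035), with 8.34% of all genes. In TR1 the 6 other heavy chain genes were negative, from MYH3 at -1.41 (p = 0.0895) to MYH8 at -0.05, and none had an unadjusted p under 0.05 in edgeR. Only 3 were negative without A2058, MYH4 was at 1.10 without A2042, and without A2088 MYH8 was at 0.20 and MYH3 at -0.92. In TR3, MYH1 was at 0.24 and MYH2 at 0.06, and MYH3, MYH4, MYH8 and MYH15 were between -0.35 and -1.07. Single calves moved these TR3 values too. MYH4 was at 0.85 without A2042, MYH8 at -0.03 without A2023, MYH15 at -2.14 without A2033 and MYH2 at -0.03 without A2074. MYL1 was at -0.16, -0.13 and 0.09 in TR1, TR2 and TR3, and MYL6B at 0.01, -0.20 and -0.04.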

How the data were processed

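The labels gave each calf its group, sex and dam age. After trimming and quality filtering, the authors aligned reads to ARS-UCD1.2 with STAR 2.7.3a and deposited raw counts per Ensembl gene of release 100 from its gene count mode, which leaves out reads that map to several places. The strand column kept is not given in the sources used here. No deposited column was left unused. All values here were computed from these counts.

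edgeR 4.0.16 in R 4.3.3 filtered genes (filterByExpr on sex and group), scaled libraries by TMM and tested 12964 genes in all 38 calves with glmQLFit and glmQLFTest, with dam age (linear), sex and group in the model, adjusted by Benjamini-Hochberg over all genes and called at 0.05. Standard errors are the log2 fold change over the root of F, and log2 CPM used a prior count of 2. The variance-stabilizing transformation came from DESeq2 1.42.0. The authors' DESeq2 was 1.28.1 per the labels. Ratios used a pseudocount of 0.5, and permutations were exact where a group (for correlations, the set) had under 10 calves and 100000 draws otherwise. The edgeR test was tried on simulated data with known changes. Intervals are 95% confidence intervals of the difference between groups, with a standard error that draws on the spread between calves. They are not ranges of single calves. Any 2 calves of a group differed by at least 17.7 chi-square per degree of freedom, so no pair looked like repeats of 1 library. Nothing in the labels says that calves of a group were sampled or sequenced in batches.

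Symbols for 2878 IDs came from the study's supplementary tables, which name genes selected in these calves, because the reference gene table (ARS-UCD2.0) pairs no Ensembl IDs. That table was used only for gene neighbours, and no coordinates or sequences are printed. The members and gene lists were chosen with earlier results of these data known, and the lists come from general knowledge of muscle. Named genes are the members, the heavy and essential light chain genes, and the 8 most and 4 least like each member. The 2 highest and 2 lowest of a comparison with CTR are named for the slow-fibre list, and only some of them for the other lists. Some genes fall outside these rules and were picked after their values were seen: those named for the 3 calves with the highest MYH6, MB, and those at the ends of a list's correlations. The fast-fibre genes given with group medians, MYL1 aside, and the cell markers named singly also fall outside these rules. Tables of the authors' comparisons were not used for values. Alternatives were DESeq2, library size, no filter, other covariates, a robust fit, only the groups compared, other transformations and pseudocounts, males only, and each calf left out. Added after seeing the data were the calf number as a term, A2034 and A2067 both left out, leaving calves out of the standardized difference, the ratios in 2 more pairs of groups, correlations with the TMM factor by library size, each calf left out for the listed genes, and log2 values for calves that stand apart.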

Additional observations from a re-analysis of the deposited data

Results flagged for a closer look

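In 20 sets of values within treatment groups (the levels and shares among them), the highest or lowest calf was compared with its nearest neighbour by Dixon's test. Chance alone passes it in about 1 of 20 sets of normal values. CPM and shares are skewed, so chance may pass more. It picked out 5 values. MYH6 was at 1446 CPM in CTR calf A2034, with the next CTR calf at 300.2 CPM, and at 824 CPM in TR1 calf A2067, with the next TR1 calf at 243 CPM. The share of MYH6 in the measured heavy chain counts was 5.92% in A2034 and 1.73% in TR3 calf A2087. The share of MYL3 in the measured essential light chain counts was 7.93% in TR1 calf A2052, which also had the highest TMM factor of all calves, 1.35. On the log2 scale, tried after the data were seen, the 2 values of A2034 still stood apart and the other 3 of these 5 did not.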

How the results depend on the processing

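MYL3 kept the direction of its log2 fold change against CTR and against TR1 under all alternatives run, and no alternative brought MYH6 or MYL3 past an adjusted p of 0.05 in a group comparison. Single calves aside, MYL3 ran from 0.081 to 0.51 in TR3 vs. CTR and from -0.51 to -0.055 in TR3 vs. TR2. MYH6 turned in direction with A2034 and A2067 both left out in TR2 vs. CTR (0.24), TR3 vs. CTR (0.71), female vs. male (0.27) and dam age (0.13 per year), and in TR3 vs. CTR with only the groups compared (0.053). Its female vs. male value was also positive with library size (0.036), dam age as a factor (0.041) and the calf number (0.069). With 1 calf left out at a time, MYH6 ran from -1.23 to 0.30 in TR1 vs. CTR, -0.69 to 0.23 in TR2 vs. CTR, -0.41 to 0.62 in TR3 vs. CTR, -0.12 to 0.65 in TR2 vs. TR1, -0.14 to 0.22 in female vs. male and -0.13 to 0.033 per year of dam age, and MYL3 from -0.23 to 0.011 in TR3 vs. TR2 (0.011 without A2068). Genes at an adjusted p under 0.05 numbered 0 to 1 in TR1, TR2 vs. CTR and dam age, and 4 to 8 between the sexes.

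Without the filter, edgeR called 2 genes in TR3 vs. CTR, 11 in TR3 vs. TR1, 4 in TR3 vs. TR2, 11 between the sexes and 3 for dam age, and 2335, 2239 and 2422 genes were past 1.5 on the standardized scale in TR1, TR2 and TR3, where the filtered table gave 1366, 1342 and 1417. On that scale MYL3 passed 1.5 in TR2 without the filter (1.64) and adjusted for dam age and sex (1.54), and was just short of it in TR3 with log2 CPM (1.496). DESeq2 called 1 gene in TR2 vs. CTR and 7 between the sexes, the calf number gave 1 in TR1 vs. CTR and leaving sex out gave 1 for dam age. The log2 ratio of MYH6 to MYL3, adjusted for dam age and sex, differed by -0.061 in TR1 vs. CTR and 0.063 in TR3 vs. TR1, by -0.44 in TR3 vs. CTR in males only and by 0.23 in TR3 vs. TR1 without A2034 and A2067. MYH6 to the other heavy chains was at 0.23 in TR2 vs. CTR without those calves and at -0.12 in TR3 vs. CTR in males. Single calves aside, MYL3 to the other essential light chains kept its direction. It ran from -0.50 to -0.13 in TR1 vs. CTR, 0.11 to 0.46 in TR2 vs. CTR and 0.25 to 0.66 in TR3 vs. TR1. With 1 calf left out, MYH6 to MYL3 ran from -0.23 to 0.40 in TR1 vs. CTR, -0.13 to 0.39 in TR3 vs. CTR and -0.24 to 0.25 in TR3 vs. TR1, and MYH6 to other heavy chains from -0.39 to 0.27 in TR1 vs. CTR and -0.34 to 0.23 in TR2 vs. CTR. The correlation of MYH6 with MYL3 was -0.39 within CTR and -0.071 within TR1. Other causes of these shifts were not tested. No paired analysis was possible because the labels number no replicates (numbers used here follow accession order) and do not name the block of each cow in the study's blocked design. The lowest MYH6 count of a calf was 726; depth was not varied.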
